A study of Mus musculus with 50 samples.

Results

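10 immediate early genes grouped as genes of neuronal activity were followed through development of the mouse frontal cortex: Fos, Fosb, Junb, Egr1, Egr2, Arc, Npas4, Nr4a1, Ier2 and Btg2. They were chosen by name, and all 10 were matched to the count files by their Ensembl identifiers. The files held 55487 genes, of which 21897 were protein-coding, and all 10 immediate early genes were among the 16330 protein-coding genes that passed the filter on low counts and were tested.

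The libraries came from frontal brain or cortex of 50 mice, 5 in each of 10 groups: wild-type (WT) and Setd1a+/- (Het) animals at E14, E18, P7, P35 and P70. Setd1a encodes a histone methyltransferase, and Setd1a+/- mice carried 1 copy of its tm1d loss-of-function allele; in the study's methods they came from heterozygous males mated to wild-type females. The labels give the strain as C57BL/6NTac for every library, whereas the methods describe a mixed C57BL/6NTac and C57BL/6J background and male animals, and date both embryonic ages to a point later in the same day. In the methods, embryonic tissue was frontal brain taken after the dam was killed and postnatal tissue was frontal cortex of killed littermates, so the step from E18 to P7 spans a change of procedure. All of it was snap frozen, but neither the hour of killing nor the time from death to freezing is given in the sources used here.

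Each library held between 35507165 and 43907318 counts, that is, paired fragments assigned to genes. Levels are given as CPM, counts scaled to the library total corrected by the TMM method, and as RPKM, CPM per kilobase of exon, where genes are compared with each other. A gene was called where the edgeR quasi-likelihood test gave an adjusted p under 0.05, with the Benjamini-Hochberg adjustment over all 16330 genes. Values in lists are in the order of the replicate numbers 1 to 5, which name the mice and carry no order.

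Immediate early genes are transcribed within minutes of a stimulus without new protein synthesis, from promoters at which factors such as CREB, SRF and MEF2 are already bound. In neurons the stimulus is calcium entry during synaptic activity, and the products are mainly transcription factors, with Arc, which acts at synapses, as the best known exception. Cortical RNA from an undisturbed animal therefore holds these transcripts at a level that depends partly on recent activity. The same genes respond to handling, stress and growth factors, and what set their level at each age was not tested.

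CREB binds the cAMP response element, or CRE, and the RefSeq promoter windows (GRCm38.p6) were searched for it, as most of the 10 genes moved together. Windows of 250 bases before the transcription start were found for 7 of the 10 genes, 11 windows in all, with no entry for Egr1, Arc and Ier2. Both strands were searched for the CRE core (TGACG), the full CRE (TGACGTCA), which contains the CRE core, the CArG box that SRF binds, the EGR element (GCGNGGGCG) and the AP-1 element (TGANTCA). Egr2 had 5 of the 11 windows, some of them overlapping, and the other 6 genes had 1 each. The CRE core stood in 9 of the 11 windows, at least 1 for each of the 7 genes, against 17.8% of the 32851 windows of all genes. The full CRE stood in 1 of the 11, that of Btg2 (1.55% of all windows), and the CArG box in 4, all of Egr2 (1.47%). The EGR element stood in 3, those of Fosb, Nr4a1 and Btg2 (4.7%), and the AP-1 element in 0 of the 11 (6.75%). A match describes these letters and does not show that a factor was bound. The 5 windows printed here are those of Fos (chr12:85473640-85473889, plus strand), Junb (chr8:84978749-84978998, minus strand), Npas4 (chr19:4989972-4990221, minus strand), Nr4a1 (chr15:101266596-101266845, plus strand) and Btg2 (chr1:134079156-134079405, minus strand). They show the CRE core alone, in repeats and as part of a full CRE, and are written 5′ to 3′ with core and full CRE letters of either strand in capitals.
Fos: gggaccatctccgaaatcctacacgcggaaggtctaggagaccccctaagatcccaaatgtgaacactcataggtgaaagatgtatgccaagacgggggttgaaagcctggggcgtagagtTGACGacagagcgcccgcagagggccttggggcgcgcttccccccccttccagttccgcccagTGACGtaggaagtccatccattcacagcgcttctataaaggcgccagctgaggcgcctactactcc
Junb: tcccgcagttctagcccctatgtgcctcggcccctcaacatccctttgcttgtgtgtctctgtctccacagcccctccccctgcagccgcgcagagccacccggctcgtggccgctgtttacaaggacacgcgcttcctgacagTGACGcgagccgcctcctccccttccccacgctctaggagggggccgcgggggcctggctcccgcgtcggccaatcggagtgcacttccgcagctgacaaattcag
Npas4: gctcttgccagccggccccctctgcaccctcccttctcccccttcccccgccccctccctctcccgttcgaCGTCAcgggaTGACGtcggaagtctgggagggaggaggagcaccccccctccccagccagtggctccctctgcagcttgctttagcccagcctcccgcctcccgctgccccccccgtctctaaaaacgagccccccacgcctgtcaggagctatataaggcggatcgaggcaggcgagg
Nr4a1: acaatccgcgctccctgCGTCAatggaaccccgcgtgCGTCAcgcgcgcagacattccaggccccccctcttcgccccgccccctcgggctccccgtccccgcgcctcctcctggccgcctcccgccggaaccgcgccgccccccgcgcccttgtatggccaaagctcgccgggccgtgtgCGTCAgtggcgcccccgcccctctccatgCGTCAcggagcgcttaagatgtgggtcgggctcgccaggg
Btg2: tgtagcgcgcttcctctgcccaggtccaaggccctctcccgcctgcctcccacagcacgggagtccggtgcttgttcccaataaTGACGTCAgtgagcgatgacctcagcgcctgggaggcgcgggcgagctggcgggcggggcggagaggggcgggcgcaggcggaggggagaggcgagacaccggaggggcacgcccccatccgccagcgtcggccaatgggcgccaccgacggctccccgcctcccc

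The targeted gene and the genes that differ between the sexes were read in every library. The targeted gene was not lower in the Setd1a+/- libraries. Setd1a was at 113 to 130.0 CPM in the wild-type and 122 to 143 CPM in the Setd1a+/- libraries at E14, and at 77.7 to 87.7 and 73.0 to 93.2 CPM at P70. At P7 every Setd1a+/- library, at 72.8 to 79.8 CPM, was above every wild-type library, at 66.8 to 72.6 CPM, and at the other 4 ages the groups overlapped. With age as a covariate its log2 fold change was 0.10 (SE 0.03, edgeR adjusted p = 0.00675), with the mean higher in the Setd1a+/- group at 4 of the 5 ages. A tm1d allele lacks only part of the gene, and the counts cover the whole gene, so this level is no check of the genotype labels. Xist, which is transcribed in female cells, reached 60159 counts in wild-type replicate 5 at E14 and 55644 in wild-type replicate 2 at E18, with 0 and 11 counts over 4 Y-linked genes. Xist did not exceed 27 counts in any of the other 48, where the Y-linked genes had 4711 or more, so that 2 libraries go against the sex given in the methods.

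Wild-type replicate 2 at P7 differed from the other 9 libraries of that age in its cell type markers. The choroid plexus list, led by Ttr, summed to 582 CPM against 1.26 to 2.32 in the others, and the oligodendrocyte list, led by Mbp, to 1127 against 111 to 162.5 CPM. Its progenitor markers summed to 347 CPM (113 to 175 in the others) and its excitatory neuron markers to 723 CPM (1205 to 1393). Excitatory cortical neuron markers were detected in every library, with the summed level lowest in that one and highest, at 2416 CPM, at P35. Markers of striatal neurons, which are not cortical, summed to between 35.3 and 715 CPM over all 50 libraries. Within groups no library was a copy of another, since the 100 pairs differed by a chi-square of 5.02 or more per gene, where counting noise alone gives about 1.

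Between E14 and P70, 8 of the 10 immediate early genes were higher at P70, by 8.43 to 143 times in mean CPM, while Ier2 and Btg2 were lower. The ratio of the P70 to the E14 mean was 143 for Fosb, 101.2 for Egr1, 71.7 for Egr2, 67.1 for Arc and 53.1 for Fos. It was 19.8 for Junb, 17.8 for Nr4a1 and 8.43 for Npas4, and 0.658 for Ier2 and 0.300 for Btg2. With 0.1 CPM added to both means, so that scarce genes weigh less, 0.337% of all tested genes had a larger ratio than Egr1 and 5.77% a larger one than Npas4. Here and in all that follows, bulk RNA cannot tell fewer expressing cells from less RNA per cell.

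**Figure D1:**
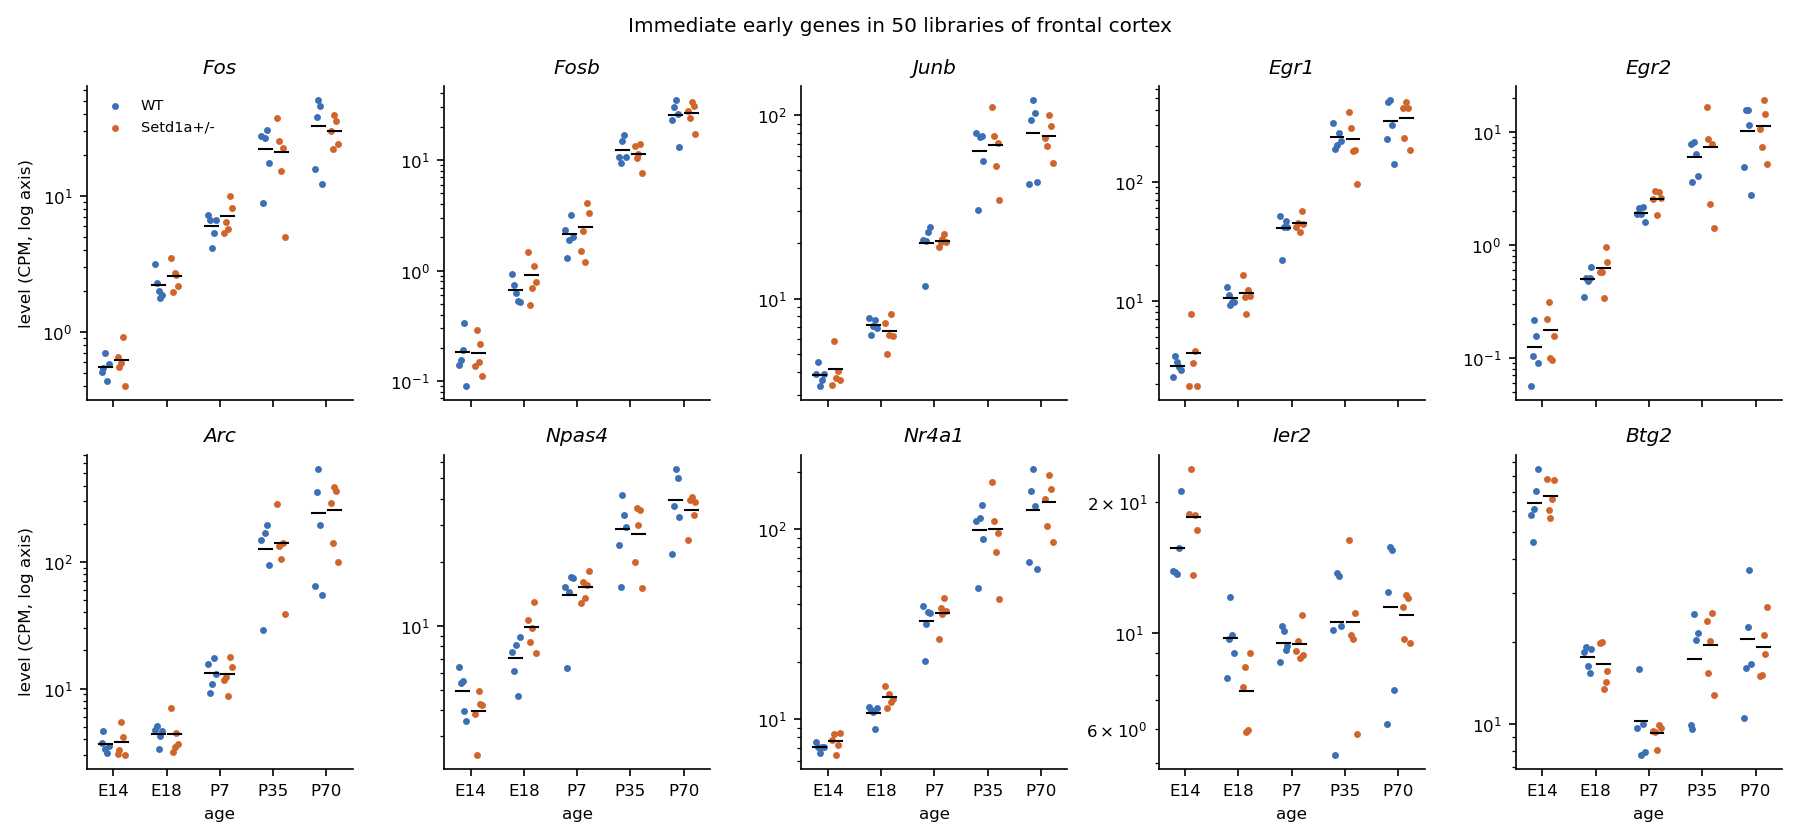
Level of each of the 10 genes in each of the 50 libraries, in CPM on a log axis, by age, with blue points for wild-type and orange points for Setd1a+/- mice and a black line at each group's mean (n = 5). In 8 panels the points climb from E14 to P70, Ier2 and Btg2 start high, and at every age the points of the genotypes overlap for all 10 genes.

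Steps between consecutive ages were tested over both genotypes. From E14 to E18, 7 of the 10 genes rose and 2 fell, where 36% of all tested genes rose and 37.4% fell. With limma-voom 4 rose in that step, as Junb, Egr2 and Nr4a1 were not called (limma-voom adjusted p = 0.0656, 0.0723 and 0.0728), and in wild-type libraries alone 5 rose, without Nr4a1 and Npas4 (edgeR adjusted p = 0.0697 and 0.0871). From E18 to P7, 8 rose and 1 fell, against 37.9% and 38.2%. From P7 to P35, 9 rose and 0 fell, against 38% and 38.1%, and no gene of the 10 had an edgeR p under 0.05 in the falling direction in that step, nor was any called lower by DESeq2 or limma-voom. From P35 to P70, 1 rose and 0 fell, against 5% and 4.74%. In that last step 7 of the 10 had an unadjusted edgeR p under 0.05, where 3902 of all 16330 tested genes did. All 7 had positive fold changes, and 0 of the 10 were called lower by DESeq2 or limma-voom.

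**Figure D2:**
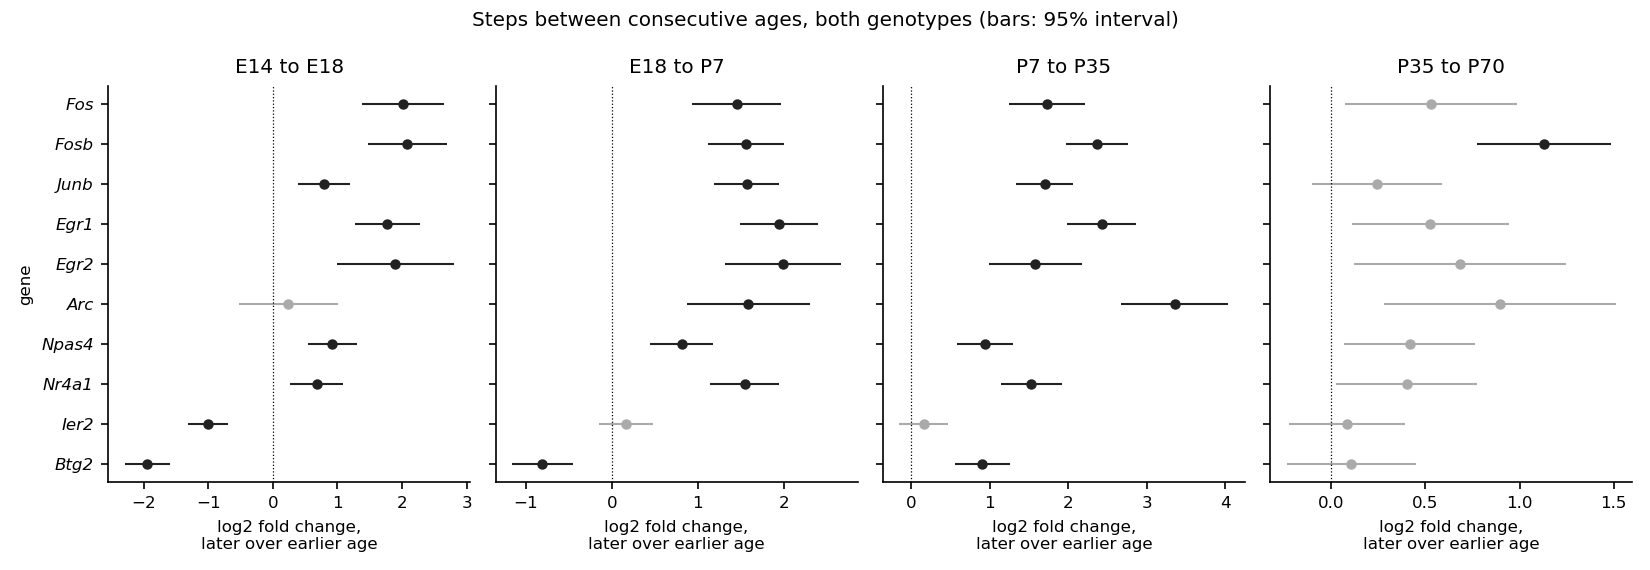
Log2 fold change of each gene from one age to the next, averaged over the genotypes (20 libraries a step), with bars for the 95% interval. Black points passed the edgeR threshold and grey points did not; each panel has its own axis. From P7 to P35 the estimates run from 0.16 for Ier2 to 3.35 for Arc, and from P35 to P70 Fosb alone is black.

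Cell type markers moved in the same steps, and their part in the steps of the 10 genes was not tested. From P7 to P35, where 38% of all tested genes rose and 38.1% fell, all 4 striatal neuron, all 4 oligodendrocyte and all 4 microglia markers rose (median log2 fold changes 2.24, 4.48 and 1.29), as did all 5 erythroid markers. The median sum over the libraries of an age went from 75.6 to 433 CPM for the striatal and from 132.04 to 4377 CPM for the oligodendrocyte markers. Of the other lists, 3 of 4 inhibitory neuron markers rose and 1 fell, 2 of 5 excitatory neuron markers rose and 3 fell, 2 of 5 astrocyte markers rose and 2 fell, 1 of 4 endothelial markers rose and 2 fell, 5 of 6 progenitor markers fell, and 0 of 4 choroid plexus markers were called. The earlier steps differed. From E14 to E18, where 36% of all tested genes rose and 37.4% fell, the markers called higher and lower were 2 and 1 of 5 excitatory neuron, 2 and 2 of 4 inhibitory neuron, 0 and 6 of 6 progenitor, 5 and 0 of 5 astrocyte, 2 and 0 of 4 oligodendrocyte, 0 and 0 of 4 microglia, 1 and 0 of 4 endothelial, 4 and 0 of 4 striatal neuron, 1 and 3 of 4 choroid plexus and 0 and 5 of 5 erythroid. From E18 to P7, with 37.9% and 38.2% of all tested genes, they were 1 and 4 of 5 excitatory neuron, 0 and 1 of 4 inhibitory neuron, 0 and 5 of 6 progenitor, 4 and 0 of 5 astrocyte, 2 and 1 of 4 oligodendrocyte, 4 and 0 of 4 microglia, 0 and 0 of 4 endothelial, 0 and 2 of 4 striatal neuron, 1 and 0 of 4 choroid plexus and 0 and 2 of 5 erythroid. From P35 to P70 no marker rose (5%), and 5 erythroid, 1 oligodendrocyte and 1 progenitor marker fell (4.74%).

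Fos, Fosb and Junb encode subunits of AP-1, a dimer of Fos and Jun family proteins that binds DNA. Fos (ENSMUSG00000021250, chr12:85473890-85477273, plus strand of GRCm38) was at 0.503, 0.542, 0.696, 0.438 and 0.585 CPM in the wild-type and 0.657, 0.554, 0.593, 0.915 and 0.400 CPM in the Setd1a+/- libraries at E14. It was at 3.14, 2.27, 1.98, 1.77 and 1.85 CPM in the wild-type and 3.50, 1.97, 2.71, 2.60 and 2.18 CPM in the Setd1a+/- libraries at E18. At P7 it was at 7.21, 6.61, 4.11, 5.32 and 6.69 CPM in the wild-type and 5.31, 6.37, 5.71, 10.04 and 8.08 CPM in the Setd1a+/- libraries. No E18 library was as low as any E14 library, and no P7 library as low as any E18 library. At P35, Fos was at 27.7, 8.79, 26.7, 30.4 and 17.3 CPM in the wild-type and 37.2, 25.5, 15.3, 22.5 and 4.96 CPM in the Setd1a+/- libraries, and at P70 at 15.9, 38.1, 50.3, 45.3 and 12.2 CPM in the wild-type and 29.9, 22.01, 39.1, 35.6 and 24.0 CPM in the Setd1a+/- libraries. Setd1a+/- replicate 5 and wild-type replicate 2 at P35, at 4.96 and 8.79 CPM, lay inside the P7 range, and the P35 and P70 libraries overlapped over most of their range. Fos rose from E14 to E18 (log2 fold change 2.02, SE 0.31, edgeR adjusted p = 2.33e-07), from E18 to P7 (1.45, adjusted p = 2.17e-06 in edgeR) and from P7 to P35 (1.73, edgeR adjusted p = 1.36e-08). Its further log2 difference of 0.53 to P70 was not called (edgeR adjusted p = 0.137).

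Fosb, whose splice product ΔFosB persists in neurons after repeated activity (ENSMUSG00000003545, chr7:19302696-19310051, minus strand), had the lowest RPKM of the 10 genes at E14, though Egr2 was lower in CPM. Its counts there were 4 to 13 per library, which gave 0.0901 to 0.335 CPM, so that its embryonic fold changes rest on few fragments. It was at 0.492 to 1.46 CPM at E18 and 1.19 to 4.04 CPM at P7. At P35, Fosb was at 10.6, 9.37, 14.8, 16.7 and 10.6 CPM in the wild-type and 13.3, 10.4, 11.3, 14.1 and 7.64 CPM in the Setd1a+/- libraries, and at P70 at 22.8, 30.1, 34.7, 26.3 and 13.03 CPM in the wild-type and 27.5, 24.0, 33.5, 30.8 and 17.1 CPM in the Setd1a+/- libraries. Only wild-type replicate 5 at P70 lay below the highest P35 library, and the other 9 were above all P35 libraries. Fosb rose in all 4 steps, by 2.09, 1.56, 2.37 and 1.13 on the log2 scale, and was the only one of the 10 called from P35 to P70 (SE 0.18, edgeR adjusted p = 3.08e-05). Under all 10 other settings that were tried for this step, and in each of the 50 fits without 1 library, it was still called.

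Junb (ENSMUSG00000052837, chr8:84974484-84978718, minus strand) shares 7.5% of its exonic bases with Prdx2 in the GENCODE annotation. Whether fragments from that stretch added to both totals was not tested. Junb had 1809 exonic bases in the annotation used for counting, against 2301 in GENCODE. It went from 3.33 to 5.88 CPM at E14 to 4.97 to 8.27 CPM at E18 and 11.7 to 24.7 CPM at P7, where the lowest library was wild-type replicate 2, which stood apart in its cell type markers. At P35, Junb was at 79.5, 30.3, 76.2, 77.1 and 56.1 CPM in the wild-type and 111, 76.8, 53.1, 70.5 and 34.3 CPM in the Setd1a+/- libraries, and at P70 at 42.2, 93.8, 121, 102.2 and 43.2 CPM in the wild-type and 75.5, 67.5, 100.1, 87.1 and 55.0 CPM in the Setd1a+/- libraries. Wild-type replicate 2 and Setd1a+/- replicate 5 at P35 and wild-type replicates 1 and 5 at P70 were the lowest adult values, and Setd1a+/- replicate 1 at P35 and wild-type replicate 3 at P70 the highest. Junb rose by 0.79, 1.57 and 1.70 on the log2 scale in the first 3 steps (edgeR adjusted p = 5.19e-04, 4.09e-10 and 1.07e-11), the first of these not called with limma-voom (adjusted p = 0.0656), and its difference of 0.24 from P35 to P70 was not called.

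Egr1 and Egr2 encode zinc finger transcription factors that bind the GC-rich EGR element. Egr1, also called Zif268 (ENSMUSG00000038418, chr18:34859823-34864984, plus strand), was at 2.32, 3.46, 3.05, 2.81 and 2.66 CPM in the wild-type and 1.94, 7.75, 3.01, 3.804 and 1.93 CPM in the Setd1a+/- libraries at E14. Setd1a+/- replicate 2 was the highest of these at 7.75 CPM, and its endothelial markers, led by Cldn5, summed to 464 CPM where the other 9 libraries held 81.2 to 161; their part in its Egr1 level was not tested. Egr1 was at 7.74 to 16.4 CPM at E18. At P7 it was at 51.4, 21.8, 41.8, 46.8 and 41.7 CPM in the wild-type and 41.8, 45.1, 37.9, 56.2 and 44.3 CPM in the Setd1a+/- libraries, with wild-type replicate 2 lowest by a wide gap. At P35, Egr1 was at 308, 187, 203.6, 255 and 219.7 CPM in the wild-type and 384, 283, 180.2, 185 and 94.7 CPM in the Setd1a+/- libraries, and at P70 at 227, 465, 479, 296 and 140.0 CPM in the wild-type and 415, 232, 463, 411 and 185 CPM in the Setd1a+/- libraries. All P35 libraries were above all P7 libraries, and the P35 and P70 values overlapped. Egr1 rose from E14 to E18 (log2 fold change 1.77, SE 0.25, edgeR adjusted p = 3.35e-08), from E18 to P7 (1.94, edgeR adjusted p = 1.87e-10) and from P7 to P35 (2.43, edgeR adjusted p = 1.44e-13), and the last step of 0.53 was not called.

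Egr2, known also for its part in myelinating Schwann cells and hindbrain patterning (ENSMUSG00000037868, chr10:67535475-67542188, plus strand), had 2 to 13 counts per library at E14 (0.0559 to 0.313 CPM), 0.335 to 0.957 CPM at E18 and 1.61 to 3.0003 CPM at P7. At P35, Egr2 was at 7.89, 3.58, 8.25, 6.45 and 4.12 CPM in the wild-type and 16.6, 8.72, 2.31, 7.87 and 1.41 CPM in the Setd1a+/- libraries, and at P70 at 4.93, 15.8, 15.7, 11.7 and 2.75 CPM in the wild-type and 10.7, 7.34, 19.2, 14.4 and 5.27 CPM in the Setd1a+/- libraries. The highest P35 value, in Setd1a+/- replicate 1, was 11.8 times the lowest, in Setd1a+/- replicate 5, which lay below every P7 library. Egr2 rose by 1.90, 1.99 and 1.58 on the log2 scale in the first 3 steps (edgeR adjusted p = 2.34e-04, 9.88e-07 and 5.84e-06), the first of these not called with limma-voom (adjusted p = 0.0723).

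Npas4 encodes a neuronal basic helix-loop-helix transcription factor that is induced selectively by calcium entry (ENSMUSG00000045903, chr19:4984355-4990316, minus strand). At E14, Npas4 was at 6.41, 5.34, 5.49, 3.94 and 3.56 CPM in the wild-type and 3.83, 2.46, 4.94, 4.26 and 4.24 CPM in the Setd1a+/- libraries, and at E18 at 7.49, 6.15, 8.09, 4.65 and 8.82 CPM in the wild-type and 10.6, 8.39, 9.83, 12.99 and 7.48 CPM in the Setd1a+/- libraries. At P7 it was at 15.3, 6.33, 14.4, 17.1 and 16.9 CPM in the wild-type and 12.8, 16.2, 13.6, 15.7 and 18.3 CPM in the Setd1a+/- libraries. Wild-type replicate 2 at P7 held less than any other P7 library, and consecutive ages overlapped in all 4 steps. At P35, Npas4 was at 24.1, 15.3, 41.6, 33.4 and 29.3 CPM in the wild-type and 20.01, 36.2, 30.0, 35.4 and 15.2 CPM in the Setd1a+/- libraries, and at P70 at 21.96, 37.04, 55.3, 49.9 and 32.9 CPM in the wild-type and 25.5, 39.3, 40.9, 33.6 and 38.5 CPM in the Setd1a+/- libraries. It rose in 3 steps by 0.92, 0.81 and 0.94 on the log2 scale (edgeR adjusted p = 3.22e-05, 8.94e-05 and 6.67e-06), and the first was 0.51 and not called in wild-type libraries alone (edgeR adjusted p = 0.0871). Its ratio of P70 to E14 was the smallest of the 8 genes that were higher at P70.

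Nr4a1, an orphan nuclear receptor also called Nur77 (ENSMUSG00000023034, chr15:101254269-101274795, plus strand), was measured with 262 or more counts in every library. It was at 6.47 to 8.46 CPM at E14, 8.896 to 14.9 CPM at E18 and 20.1 to 43.4 CPM at P7, without overlap between E14 and E18 or between E18 and P7. At P35, Nr4a1 was at 109, 49.0, 114, 134 and 88.0 CPM in the wild-type and 176, 110.0, 75.3, 94.7 and 42.7 CPM in the Setd1a+/- libraries, and at P70 at 67.2, 158.4, 207, 131.9 and 61.2 CPM in the wild-type and 144, 103, 193.2, 162.3 and 85.7 CPM in the Setd1a+/- libraries. The libraries that were low and high for Junb were again low and high. Nr4a1 rose by 0.68, 1.54 and 1.53 on the log2 scale (edgeR adjusted p = 0.00309, 2.41e-09 and 1.13e-09). The first of these was not called with limma-voom (adjusted p = 0.0728) or in wild-type libraries alone (edgeR adjusted p = 0.0697).

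Arc (ENSMUSG00000022602, chr15:74669083-74672570, minus strand) encodes a protein that promotes the removal of AMPA receptors from synapses, and its mRNA travels into dendrites. Of the 8 genes that were higher at P70 than at E14, it alone was not called from E14 to E18 in edgeR, while limma-voom did not call Junb, Egr2 and Nr4a1 either. At E14, Arc was at 3.72, 4.60, 3.31, 3.12 and 3.51 CPM in the wild-type and 3.06, 3.28, 5.41, 4.12 and 2.997 CPM in the Setd1a+/- libraries, and at E18 at 4.68, 5.08, 3.34, 4.24 and 4.59 CPM in the wild-type and 7.02, 3.16, 3.46, 4.44 and 3.65 CPM in the Setd1a+/- libraries. These overlapped, and the difference was not called (log2 fold change 0.24, edgeR adjusted p = 0.585). At P7 it was at 15.6, 9.23, 10.9, 17.3 and 13.03 CPM in the wild-type and 11.6, 12.4, 8.68, 17.6 and 14.7 CPM in the Setd1a+/- libraries, above all E18 libraries. At P35, Arc was at 148, 28.9, 169.7, 196.02 and 93.8 CPM in the wild-type and 285, 134, 106, 141 and 38.4 CPM in the Setd1a+/- libraries, and at P70 at 64.4, 355, 541, 195.7 and 55.0 CPM in the wild-type and 293, 141, 386, 360.3 and 100.2 CPM in the Setd1a+/- libraries. The lowest adult library, wild-type replicate 2 at P35, was still above all P7 libraries, and wild-type replicate 3 at P70 was the highest of all 50. The rise from P7 to P35 (log2 fold change 3.35, SE 0.34, edgeR adjusted p = 4.01e-12) was the largest single step of any of the 10 genes, after a rise of 1.58 from E18 to P7 (edgeR adjusted p = 9.92e-05).

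The call of Arc from P35 to P70 depended on the libraries and the tool. The log2 fold change was 0.90 (SE 0.30) with an edgeR adjusted p of 0.0524, whereas DESeq2 gave an adjusted p of 0.0426. The number of the 10 genes called higher in that step was 1, but 6 without Setd1a+/- replicate 1 at P35, 5 without wild-type replicate 5 at P70 and 3 without Setd1a+/- replicate 5 at P70. It was 2, with Arc added, without wild-type replicate 4 at P35, wild-type replicate 2 at P7, wild-type replicates 1 or 4 at P70 or Setd1a+/- replicate 2 at P70, each left out alone.

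Ier2 and Btg2 ran the other way in the embryo. Ier2 (ENSMUSG00000053560, chr8:84661331-84662852, minus strand) encodes a small nuclear protein of the early response, and Btg2 (ENSMUSG00000020423, chr1:134075170-134079120, minus strand) an antiproliferative protein that marks progenitors committed to making neurons. At E14, Btg2 was at 57.8, 46.2, 60.9, 70.7 and 85.1 CPM in the wild-type and 78.0, 60.3, 56.3, 66.1 and 77.9 CPM in the Setd1a+/- libraries, and at E18 at 18.4, 19.1, 16.3, 15.3 and 18.8 CPM in the wild-type and 19.7, 19.99, 13.4, 14.3 and 15.7 CPM in the Setd1a+/- libraries. The lowest E14 library was 2.31 times the highest E18 library. Btg2 fell by 1.95 on the log2 scale to E18 (edgeR adjusted p = 1.14e-13) and fell by 0.80 to P7 (edgeR adjusted p = 6.83e-05). It was at 9.698, 15.95, 7.74, 10.04 and 7.92 CPM in the wild-type and 9.49, 9.37, 8.07, 9.96 and 9.696 CPM in the Setd1a+/- libraries at P7. At P35, Btg2 was at 9.97, 9.63, 25.3, 20.3 and 21.5 CPM in the wild-type and 23.7, 15.4, 20.1, 25.4 and 12.8 CPM in the Setd1a+/- libraries. Wild-type replicate 2 was the highest P7 library, with the progenitor markers given for it above, and 4 of the 10 P35 libraries lay within the P7 range. Btg2 rose from P7 to P35 (log2 fold change 0.91, SE 0.18, edgeR adjusted p = 1.08e-05) and was at 10.6 to 36.3 CPM at P70.

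Progenitor markers were also highest at E14. Their summed level, of Pax6, Sox2, Eomes, Hes5, Mki67 and Top2a, was 923 to 1341 CPM at E14, 285 to 451 at E18, 113 to 347 at P7 and 60.9 to 85.3 at P70. All 6 were called lower from E14 to E18 (37.4% of all tested genes), and the most abundant was Top2a. Their part in the levels of Btg2 was not tested. Ier2 was at 13.9, 13.8, 13.7, 15.7 and 21.3 CPM in the wild-type and 18.9, 23.9, 13.6, 18.8 and 17.3 CPM in the Setd1a+/- libraries at E14 and at 7.89, 9.67, 12.1, 9.905 and 9.01 CPM in the wild-type and 7.52, 8.34, 5.91, 5.97 and 8.999 CPM in the Setd1a+/- libraries at E18, without overlap. It fell by 1.01 on the log2 scale in that step (edgeR adjusted p = 1.44e-07) and was called in no later step, with 8.55 to 10.98 CPM at P7, 5.24 to 16.4 CPM at P35 and 6.18 to 15.7 CPM at P70.

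The order of the genes by level, per length, changed with age. At E14, Btg2 led with 24.0 ± 4.35 RPKM (SD, n = 10), before Ier2 at 11.2 ± 2.36, and these did not overlap with the rest. Junb (2.20 ± 0.411) and Nr4a1 (2.11 ± 0.187) did not differ beyond their spread, nor did Arc (1.21 ± 0.256) and Npas4 (1.08 ± 0.273). Egr1 (0.730 ± 0.376) followed, within its spread of Npas4, and then Fos (0.250 ± 0.0620). Egr2 (0.0442 ± 0.0232) and Fosb (0.0290 ± 0.0126) were last and within their spread. At P7, Junb (11.3 ± 1.92), Nr4a1 (9.82 ± 1.94) and Egr1 (9.56 ± 2.03) were first and within their spread of one another, ahead of Ier2 (6.22 ± 0.516) and Arc (4.28 ± 1.03). At P70 the means of Arc (81.5 ± 53.2) and Egr1 (73.9 ± 28.9) were highest, before Junb (43.5 ± 14.7) and Nr4a1 (37.4 ± 14.5), but Arc lay within its spread of all 3. In wild-type replicates 1 and 5 Arc, at 21.1 and 17.98 RPKM, was below Junb, at 23.3 and 23.9. Fos (13.3 ± 5.36) and Npas4 (9.07 ± 2.43) came next and within their spread. Ier2 (7.37 ± 2.05) and Btg2 (7.22 ± 2.68) followed, close to one another and within their spread of Npas4. Fosb (4.16 ± 1.12) and Egr2 (3.17 ± 1.63) were last and within their spread.

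The spread between mice of the same age and genotype was wider at P35 than at P7 for 9 of the 10 genes. The SD of log2 CPM within groups had a median over the 10 genes of 0.308 (E14), 0.316 (E18), 0.343 (P7), 0.594 (P35) and 0.603 (P70). Over all tested genes the median was 0.189, 0.138, 0.132, 0.102 and 0.131 at the same ages. In the other steps the SD was lower at E18 than at E14 for 8 genes, higher at P7 than at E18 for 8, and lower at P70 than at P35 for 7. Arc had the largest SD at P70, 1.204, exceeded by 0.202% of the tested genes, and Egr2 at P35, 1.10, exceeded by 0.184%. Fos was at 0.942 at P35 and 0.708 at P70. Fosb differed from the others, with an SD of 0.350 at P35 against 0.607 at P7, and so had the narrowest spread of the 10 at P35.

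**Figure D3:**
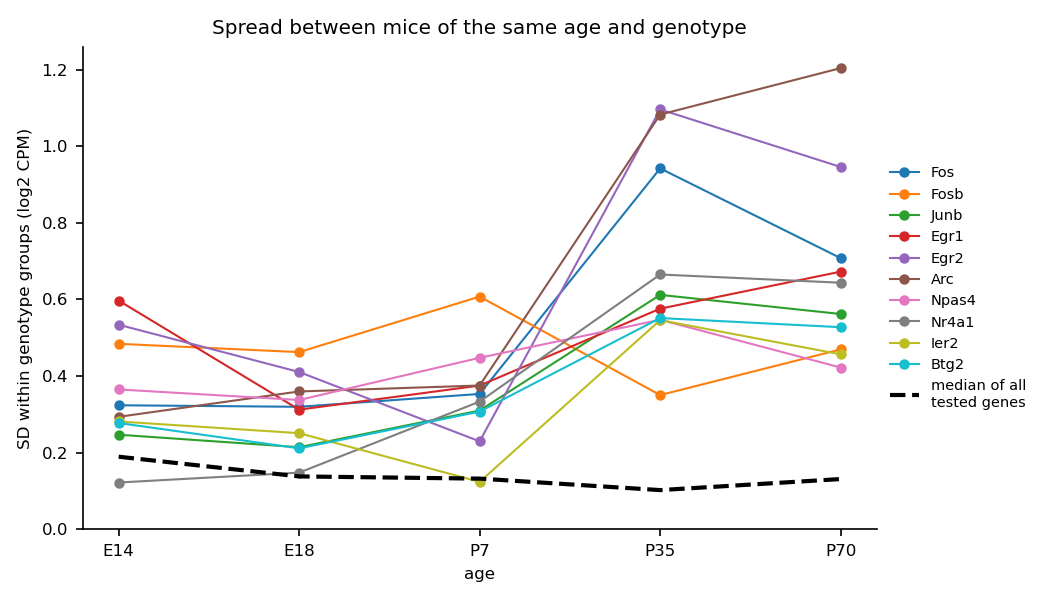
SD of log2 CPM within genotype groups (10 libraries an age, 8 degrees of freedom) for each of the 10 genes, with the median of all tested genes as a dashed line. At P35 and P70 every coloured line is above the dashed line, which lies at 0.102 and 0.131.

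The differences between mice were shared by the genes at P35 and P70. Wild-type replicate 2 at P35 was the lowest of its group for 10 of 10 genes, with a mean deviation from the group means of -0.88 on the log2 scale. Setd1a+/- replicate 5 at P35 was also lowest for 10 of 10, at -1.10, and Setd1a+/- replicate 1 was highest for 7, at 0.76. At P70, wild-type replicate 3 was highest for 8 genes (0.77), and wild-type replicates 5 and 1 deviated by -0.88 and -0.73 and were lowest for 6 and 4. Both genotypes therefore held mice at each end, and Setd1a+/- replicates 3 and 5 at P70 were the highest for 9 and the lowest for 7 genes of their group (0.45 and -0.44). At P7 the widest deviations were -0.33 in wild-type replicate 2 and 0.32 in Setd1a+/- replicate 4.

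**Figure D4:**
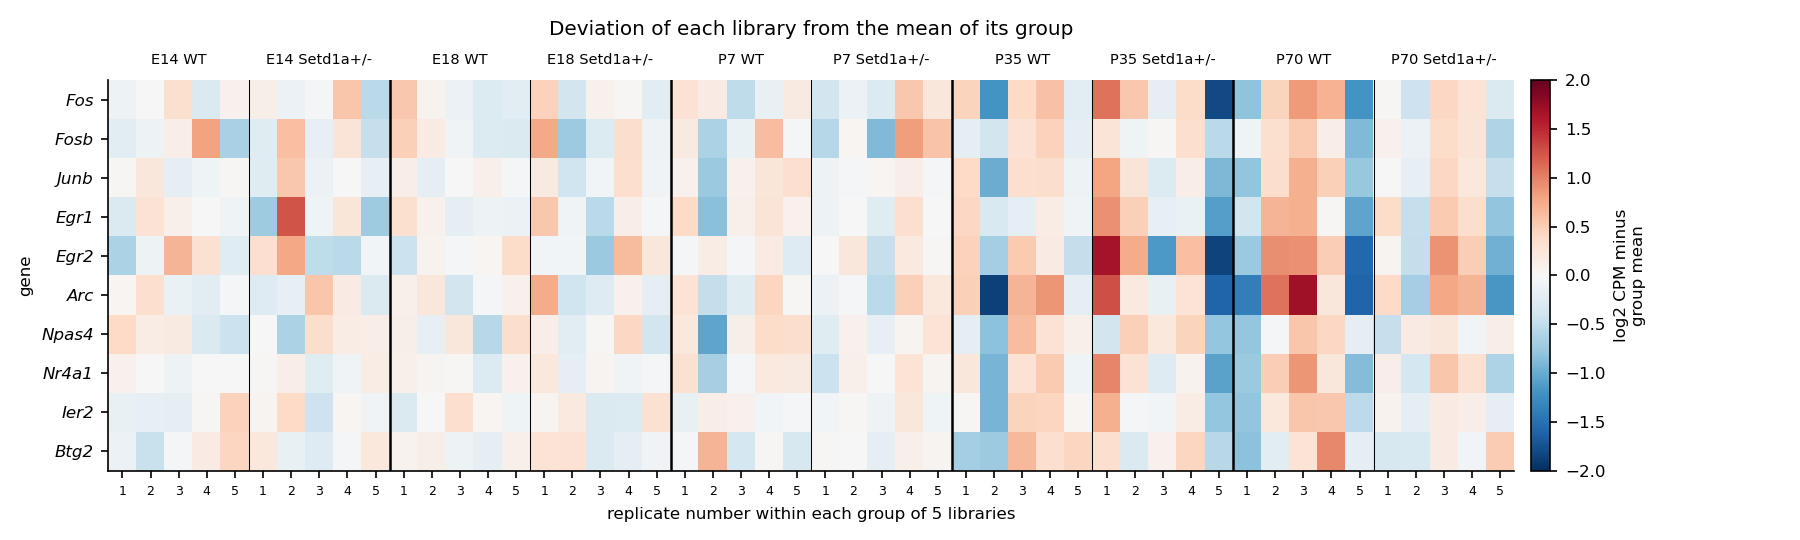
Log2 CPM of each gene in each of the 50 libraries minus the mean of its group of 5, from blue (lower) to red (higher), with colours ending at 2 on either side. Columns of one colour stand out from P35 on, as in wild-type replicate 2 and Setd1a+/- replicate 5 at P35, where all 10 genes are blue, and no such column is seen at E14.

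Over the 45 pairs of genes, the median Pearson correlation of these deviations went from 0.0631 in the E14 libraries to 0.270 (E18), 0.352 (P7), 0.785 (P35) and 0.852 (P70; n = 10 libraries an age). At P35 and at P70, 45 of 45 pairs were above 0, against 25 at E14, 35 at E18 and 31 at P7. Genes measured in 1 library share its dissection, depth and scaling, and low counts of Fosb, Egr2 and Fos at E14 add counting noise, so these are descriptions. Fos had 17 to 38 counts a library at that age. The highest pair at P70 was Arc and Nr4a1 (r = 0.993), and the lowest Fosb and Btg2 (r = 0.0842). Over all 50 libraries the median was 0.618, and 0.536 without Setd1a+/- replicate 5 at P35 and wild-type replicate 5 at P70, the pair farthest from the median.

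Markers of other tissue were read in all adult mice, beside the mean deviation of the 10 genes. At P35 that deviation was 0.14, -0.88, 0.40, 0.42 and -0.08 in the wild-type and 0.76, 0.26, -0.19, 0.27 and -1.10 in the Setd1a+/- libraries, and at P70 it was -0.73, 0.43, 0.77, 0.42 and -0.88 in the wild-type and 0.03, -0.30, 0.45, 0.26 and -0.44 in the Setd1a+/- libraries. Striatal markers, led by Ppp1r1b, summed at P35 to 431, 582, 375, 381 and 436 CPM in the wild-type and 272, 624, 366, 655 and 570.2 CPM in the Setd1a+/- libraries. At P70 they summed to 619, 651, 184, 541 and 446 CPM in the wild-type and 301, 470.1, 715, 286 and 565 CPM in the Setd1a+/- libraries. Mice with high immediate early genes, and mice with low ones, lay on both sides of the median striatal sum of their age. Wild-type replicate 2 and Setd1a+/- replicate 5, lowest in the 10 genes at P35, lay above it. The least striatal sum was in the mouse highest in the 10 genes, Setd1a+/- replicate 1 at P35 and wild-type replicate 3 at P70. The most was in Setd1a+/- replicate 4 at P35 and Setd1a+/- replicate 3 at P70, with deviations of 0.27 and 0.45. Erythroid markers, led by Hbb-bs, summed at P35 to 281, 244, 214, 238 and 340.0 CPM in the wild-type and 557, 352, 171, 236 and 263 CPM in the Setd1a+/- libraries. At P70 they summed to 65.7, 144, 187, 188 and 97.3 CPM in the wild-type and 75.7, 75.7, 124, 107 and 56.6 CPM in the Setd1a+/- libraries. At P35 the most was in Setd1a+/- replicate 1, highest in the 10 genes, the least in Setd1a+/- replicate 3, and the mice lowest in the 10 genes were in between. At P70 the most was in wild-type replicates 3 and 4, and the least in Setd1a+/- replicate 5 and wild-type replicate 1. Over the 50 libraries, which share dissection and scaling, the correlation of single markers with the mean deviation was 0.303 to 0.361 for 5 erythroid genes, -0.277 to -0.176 for 4 striatal genes and 0.0450 to 0.241 for 5 excitatory neuron genes. It was -0.323 to 0.647 for 6 progenitor genes, 1 of them over 0.5, -0.167 to 0.340 for 4 inhibitory neuron genes, -0.274 to 0.00328 for 4 oligodendrocyte genes and -0.185 to 0.0198 for 4 choroid plexus genes. For 5 astrocyte, 4 microglia and 4 endothelial genes it was -0.0852 to 0.0696, -0.137 to 0.140 and 0.0108 to 0.108. These correlations of markers are not given for P35 and P70 alone. The part of the dissection, and that of the hour and the handling before death, in these deviations was not tested.

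The 10 genes outside the group that followed it most closely were taken by their correlation, over the 50 libraries, with the mean deviation of the 10 immediate early genes. They were Dusp1 (r = 0.831), Sik1 (0.827), Klf10 (0.823), Trib1 (0.819), Rasl11a (0.778), Irf2bp2 (0.754), Dusp6 (0.754), Mcl1 (0.738), Spty2d1 (0.734) and Csrnp1 (0.731). Without the pair of libraries farthest from the median they stayed between 0.662 and 0.802. Dusp1, a phosphatase of MAP kinases, had r = 0.949 over the 20 libraries of P35 and P70 but -0.174 over the 30 of E14 to P7. Of 32 other rapid immediate early genes, 12 exceeded r = 0.5 (median 0.435), against 114 of 16320 genes outside the group (median -0.00452). In the late activity-regulated, upstream signalling and heat shock lists, 0 of 11, 0 of 27 and 0 of 5 genes exceeded it. These r values span all 50 libraries, and r over P35 and P70 alone is not given for these lists. The late list deviated at P35 by -0.08, -0.10, 0.13, 0.16 and -0.10 in wild-type and 0.07, -0.11, 0.05, 0.06 and -0.07 in Setd1a+/- libraries. At P70 the values were 0.06, 0.15, 0.14, -0.12 and -0.22 in wild-type and 0.13, -0.03, 0.12, 0.12 and -0.35 in Setd1a+/- libraries.

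Other genes of the activity response were counted in the same steps, and no difference between lists was tested. Of the 32 other rapid immediate early genes, 15 rose and 9 fell from E14 to E18, 9 rose and 11 fell from E18 to P7, 19 rose and 7 fell from P7 to P35, and 4 rose and 0 fell from P35 to P70. Of all tested genes, 36% rose and 37.4% fell in the first of these steps, 37.9% and 38.2% in the second, 38% and 38.1% in the third and 5% and 4.74% in the last. Egr4, a close relative of Egr1, rose from E14 to E18 and again to P7 (log2 fold changes 3.87 and 3.32, edgeR adjusted p = 1.63e-13 and 9.17e-20), and Egr3 rose from E18 to P7 by 2.57 on the log2 scale. Klf6 rose at first, 1.15, and was lower at P35 than at P7 (-0.82). In the embryo, Gadd45g (log2 fold change -1.77, edgeR adjusted p = 2.19e-18) and Jun (-0.74) fell. Ier5 and Zfp36 were lower at P7 than at E18 (-1.21 and -1.04), and Ier5 then rose by 1.86, as did Gadd45b by 1.71, while Plk3 was lower (-0.67). Homer1 and Klf4 were named among the 4 that rose from P35 to P70 (0.58 and 0.60, edgeR adjusted p = 3.81e-04 and 0.00622), and in wild-type libraries alone their values were 0.39 and 0.60, not called (edgeR adjusted p = 0.293 and 0.202). That fit compares 5 with 5 libraries in place of 10 with 10, and calls 173 of all tested genes in this step.

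Late activity-regulated genes encode secreted and synaptic proteins. Of 11, 9 rose and 1 fell from E14 to E18, 6 rose and 1 fell to P7, 8 rose and 1 fell to P35, and 2 rose and 0 fell to P70, beside the same shares of all genes. Vgf, a neuropeptide precursor, rose by 2.38 and 1.76 on the log2 scale in the first 2 steps (edgeR adjusted p = 2.77e-21 and 2.19e-18). Pcsk1, a prohormone convertase, rose by 1.86 to P7 and 1.91 to P35, and Nrn1 by 3.06 to P35 after being lower at E18 than at E14 (-1.01). Syt4 rose to E18 (1.48) and was lower in each of the next steps (-0.26 and -0.52). Ptgs2 (0.69) and Inhba (0.57, edgeR adjusted p = 0.0480) rose from P35 to P70, though Inhba lost its call in 27 of the 50 fits without 1 library, and in wild-type libraries alone the values were 0.57 and 0.35, not called (edgeR adjusted p = 0.371 and 0.698).

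The kinases and factors upstream were counted in the same steps. Of 27, 16 rose and 9 fell from E14 to E18, 14 rose and 11 fell to P7, 17 rose and 4 fell to P35, and 1 rose and 0 fell to P70. All tested genes had 36% and 37.4%, 37.9% and 38.2%, 38% and 38.1%, and 5% and 4.74% higher and lower in these steps, and no difference from those shares was tested. The calcium-dependent kinases Camk2a and Camk4 rose from E18 to P7 by 2.81 and 2.15 on the log2 scale (edgeR adjusted p = 2.32e-26 and 2.89e-25), and Mef2c rose by 1.99 and Rps6ka4 by 1.16 from E14 to E18. Creb1, which encodes CREB, was lower at E18 than at E14 and at P7 than at E18 (-0.51 and -0.84), as were Elk4 in the first step (-0.52) and Ep300 in the second (-0.76). From P7 to P35 the calcineurin subunit gene Ppp3r1 and Map2k1 rose by 1.52 and 1.55, whereas Map2k2 (-0.39) and Mapk3 (-0.69) were lower. Crem, a CREB relative, was the 1 gene called from P35 to P70 (0.37, edgeR adjusted p = 3.28e-04, and 0.34 with 0.0864 in wild-type libraries alone).

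Genotype was tested next, as the study compared Setd1a+/- with wild-type cortex across development. With age as a covariate, 0 of the 10 genes were called in edgeR, where 4.43% of all tested genes were. At an unadjusted edgeR p under 0.05 there were 0 of the 10, and 2360 of all 16330 tested genes. DESeq2 and limma-voom also called 0 of 10, each with 0 at an unadjusted p under 0.05. The log2 fold changes ran from -0.04 (Ier2) to 0.31 (Egr2), 8 of 10 above 0, with a median of 0.06 against 0.00 over all tested genes. Without 1 library, the value of Egr2 ranged over 0.181 to 0.373 and that of Ier2 over -0.0821 to -0.0149. For Egr2 the 95% interval was -0.09 to 0.70 (edgeR adjusted p = 0.525), the highest upper bound of the 10. Arc had the lowest bound, with an interval of -0.35 to 0.46, and Ier2 the narrowest interval (-0.24 to 0.15). Differences of a size inside these intervals remain possible, since a p over the threshold does not show that the genotypes are alike. The signs for Btg2, Ier2, Junb, Npas4 and Arc turned under other settings or without single libraries, and none was called in those fits.

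**Figure D5:**
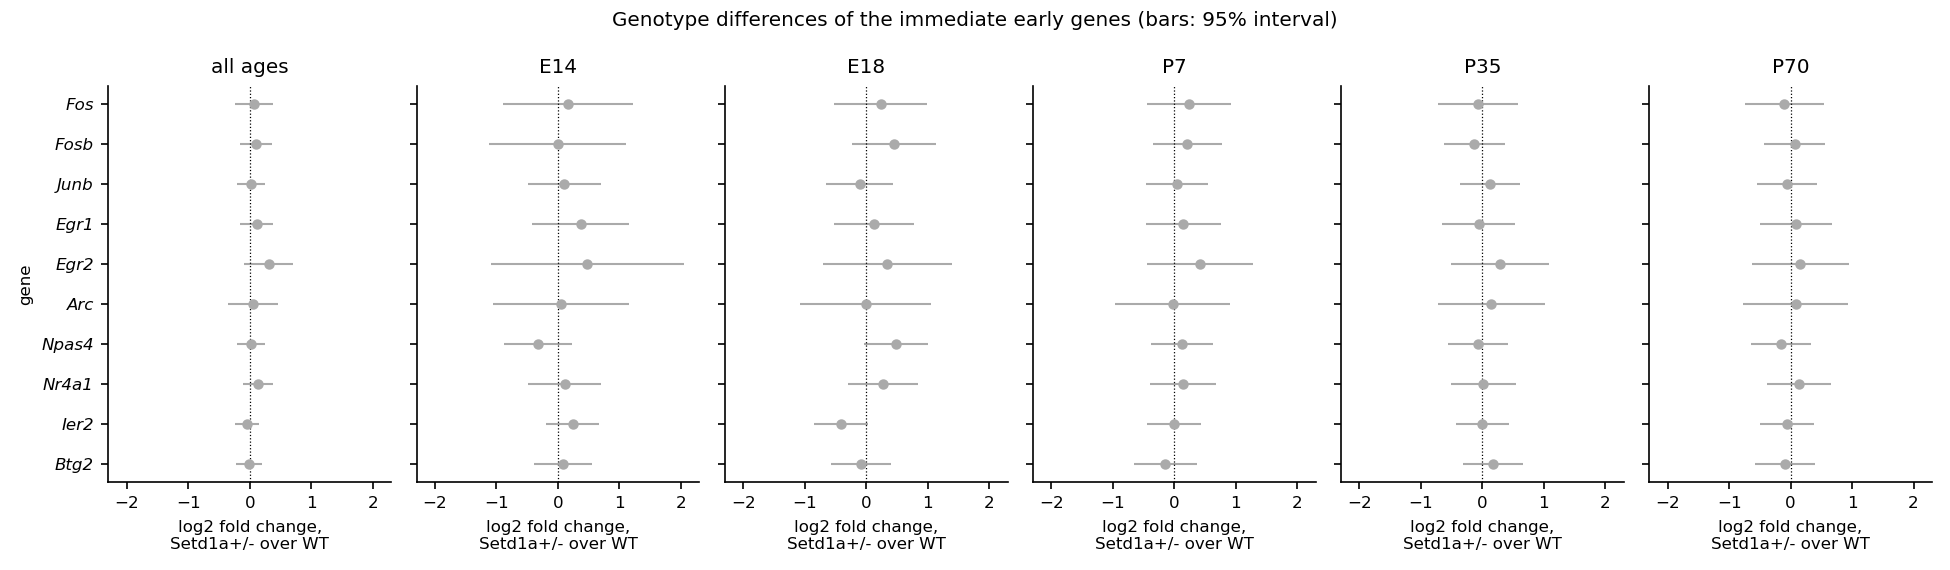
Log2 fold change of Setd1a+/- over wild-type for each gene, over all ages with age as covariate and at each age, with bars for the 95% interval. All points are grey because none passed the edgeR threshold, and all bars include 0; the bars are widest at E14 for Egr2, from -1.10 to 2.05.

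At single ages, 0 of the 10 genes were called at E14 (0.129% of all tested genes), E18 (0.11%), P7 (0.735%), P35 (0%) and P70 (0.233%). These shares of all genes were not stable. Leaving out 1 library, the number called ranged over 1 to 741 at E14, 7 to 150 at E18, 0 to 5 at P35 and 8 to 92 at P70, and at P7 it went from 7 to over 1.5 times the 120 called with all libraries. Without the 2 Xist libraries it was 795 at E14 in place of 21. Of the 10 genes, 0 were called in each of those fits, and neither edgeR, DESeq2 nor limma-voom gave any of the 10 an unadjusted p under 0.05 at any age. In edgeR 1894, 1859, 1448, 551 and 1070 of all 16330 tested genes had one, in order of age. The fit takes 1 dispersion a gene for all ages, so the intervals do not follow the spread at each age: for Fos the SE was 0.526 at E14 and 0.320 at P70, where the SD of log2 CPM was 0.323 and 0.708. In all 50 pairings of a gene with an age, the wild-type and Setd1a+/- libraries overlapped. The smallest p at E18 was that of Npas4, with 7.04 ± 1.66 CPM in the wild-type and 9.86 ± 2.13 CPM in the Setd1a+/- group (SD, n = 5; log2 fold change 0.49, edgeR adjusted p = 0.477). At E14 it was Npas4 as well, with the opposite sign (-0.32, edgeR adjusted p = 0.712), ranging over -0.42 to -0.19 without 1 library. Egr2 had the smallest p at P7 (0.42, edgeR adjusted p = 0.876) and at P35 (0.29, edgeR adjusted p = 1.0000), and the P35 value turned to -0.25 without Setd1a+/- replicate 1. At P70 it was Npas4 (-0.15, edgeR adjusted p = 0.9998), and its value became 0.00 without wild-type replicate 3.

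Whether the genotype difference varied with age was tested by the interaction of age and genotype. It called 0 of the 10 genes in edgeR, with 0% of all tested genes called. At an unadjusted edgeR p under 0.05 there were 0 of the 10, and 1098 of all 16330 tested genes. The smallest p of the 10 was that of Npas4 (edgeR adjusted p = 0.959). DESeq2 and limma-voom also called 0 of 10 with 0 unadjusted p under 0.05. With age as covariate, genotype called 4.43% of all 16330 tested genes in edgeR, and 2360 had an unadjusted p under 0.05. In the lists of the same pathway it called 0 of 32 other rapid immediate early genes, 0 of 11 late activity-regulated genes and 0 of 27 upstream genes. At an unadjusted edgeR p under 0.05 there were 2, 0 and 0. The 2 were Klf4 (log2 fold change 0.22, edgeR adjusted p = 0.268) and Nr4a2 (-0.27, edgeR adjusted p = 0.320).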

How the data were processed

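Gene counts were deposited by the authors for 50 libraries from poly(A)-captured RNA, sequenced in a single batch as paired ends. Per the submitters' processing notes, reads went through Trimmomatic, FastQC, STAR and featureCounts. The file headers name featureCounts 1.4.6-p2, GRCm38 and Ensembl release 102, with fragments that overlap several genes counted for each and no strand option. A fragment shared by overlapping genes, on either strand, therefore adds to both.

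Gene symbols came from GENCODE M21 by identifier. Protein-coding genes were kept by filterByExpr (at least 10 counts in 5 libraries, scaled by depth), normalised by TMM and tested with edgeR 4.0.16 in R 4.3.3, over the 10 groups or, for genotype, with age as a covariate. Log2 CPM used a prior count of 2. Alternatives were DESeq2 1.42.0, limma 3.58.1 (voom), other scaling, filters and covariates, the replicate block and leaving out libraries. The procedure was also run on simulated data, and the outcome of that run is not given here. Python 3.11.15 and matplotlib 3.10.9 made the figures.

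The 10 genes and the lists were chosen with earlier results of these data known. From each list, at most 4 genes a comparison were named: of those called, the 2 higher and 2 lower genes with the lowest adjusted p, or the 2 with the smallest p where none was called. Setd1a was named as the target, and the 10 genes most like the group by their correlation.

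The data are of bulk tissue from mice with no stimulus described, 5 a group, with no record here of the hour of killing. The genotype labels could not be checked from gene counts, and 2 libraries go against the stated sex. Cell type marker levels differed between mice of a group, for reasons not tested. Low counts limit Fosb and Egr2 in the embryo and Fos at E14. For all ages the fit takes 1 dispersion a gene. Its intervals and p at P35 and P70 therefore do not carry the wider spread seen there. mRNA levels do not measure protein or activity itself.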

Additional observations from a re-analysis of the deposited data

Results flagged for a closer look

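In each of 100 groups of 5 libraries (10 genes by 10 groups), the gap between an extreme library and its nearest neighbour was compared with the whole range of the group by Dixon's criterion. 4 groups held a library that far from the others, and chance alone marks about 1 in 20 groups. Wild-type replicate 2 at P7 accounted for 3 of the 4. It had Junb at 11.7 CPM, where the other 4 libraries of its group were at 20.7 to 24.7 CPM, and Egr1 at 21.8 CPM, where the other 4 libraries of its group were at 41.7 to 51.4 CPM. Npas4 was at 6.33 CPM, where the other 4 libraries of its group were at 14.4 to 17.1 CPM. In that library choroid plexus markers summed to 582 CPM, oligodendrocyte markers to 1127 CPM and excitatory neuron markers to 723 CPM, and their part in these values was not tested. The 4th value was Nr4a1 in wild-type replicate 4 at E18, at 8.896 CPM, where the other 4 libraries of its group were at 10.8 to 11.5 CPM. That library and wild-type replicate 3 held 176 and 218 CPM of choroid plexus markers, where the other 8 libraries at E18 held 0.880 to 7.28. No library of P35 or P70 was marked in this way.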

How the results depend on the processing

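Members called for genotype, at each age and for the interaction were 0 under every setting that was tried, and 0 in all 50 fits that each left out 1 library. The settings were DESeq2, limma-voom, DESeq2 size factors within edgeR, no filter on low counts, at least 10 CPM in at least 5 libraries, RNA integrity as a covariate, the replicate block, and removal of the 2 wild-type libraries with Xist counts. One more, removal of those 2 together with wild-type replicate 2 at P7, was chosen after seeing the data. For age steps, wild-type libraries alone were also used.

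From E14 to E18, the count of genes called higher was 4 in place of 7 with limma-voom, where Junb, Egr2 and Nr4a1 missed the threshold (limma-voom adjusted p = 0.0656, 0.0723 and 0.0728), and Nr4a1 and Npas4 missed it in wild-type libraries alone (edgeR adjusted p = 0.0697 and 0.0871). With limma-voom the 3 log2 fold changes were 0.80, 1.91 and 0.67, against 0.79, 1.90 and 0.68. In wild-type libraries alone Nr4a1 was at 0.60, and Npas4 went from 0.92 to 0.51. From P35 to P70, the count was 2 in place of 1 with DESeq2, with the 10 CPM filter, with the replicate block and without the 3 libraries, each time through Arc (adjusted p = 0.0426, 0.0426, 0.0472 and 0.0473). The filter left fewer genes to test, and the cause of the other changes was not tested. Other counts of called genes among the 10 changed by less than 1.5 times. Counts over all tested genes moved more: from P35 to P70 wild-type libraries alone called 173, and for genotype at E14 the count went from 21 to 114 with DESeq2, 795 without the 2 Xist libraries and 1164 without the 3.

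Small genotype differences changed sign. Btg2 went from -0.0111 to 0.0447 with limma-voom, 0.0254 with the replicate block, 0.0176 without the 2 Xist libraries and 0.0601 without the 3 libraries. Ier2 went from -0.0436 to 0.00835 with limma-voom. Junb went from 0.0176 to -0.0187 without the 3 libraries, and Npas4 from 0.0173 to -0.0129 without the 2 and -0.0521 without the 3. Egr2 at P35 went from 0.29 to -0.11 with limma-voom and -0.0652 with the replicate block, and Ier2 from E18 to P7 went from 0.17 to -0.0326 in wild-type libraries alone. None of these was called under any setting.

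Leaving out 1 library at a time, the count called higher from P35 to P70 ranged from 1 to 6. It was 6 without Setd1a+/- replicate 1 at P35, 5 without wild-type replicate 5 at P70, 3 without Setd1a+/- replicate 5 at P70, and 2 without wild-type replicate 4 at P35, wild-type replicate 2 at P7, wild-type replicates 1 or 4 at P70 or Setd1a+/- replicate 2 at P70. Genotype differences ranged over -0.0428 to 0.0487 for Btg2, -0.0326 to 0.0595 for Junb, -0.0383 to 0.17 for Arc and -0.0188 to 0.0528 for Npas4. Those that kept their sign ranged over 0.181 to 0.373 for Egr2, -0.0821 to -0.0149 for Ier2 and 0.0490 to 0.140 for Fosb. For Fos, Nr4a1 and Egr1 the ranges were 0.00930 to 0.133, 0.0779 to 0.183 and 0.0563 to 0.159. At P35, Egr2 ranged over -0.25 to 0.56, negative without Setd1a+/- replicate 1, and Npas4 at P70 over -0.30 to 0.00336, its sign lost without wild-type replicate 3. From P35 to P70, Btg2 ranged over -0.0486 to 0.19, negative without wild-type replicate 4 at P70, and Ier2 over -0.00274 to 0.19, negative without wild-type replicate 2 at P35. The first 3 steps called 9 of 10 genes in all 50 fits.

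Among listed genes, wild-type libraries alone lost the calls from P35 to P70 of Crem, Klf4, Homer1, Ptgs2 and Inhba (edgeR adjusted p = 0.0864, 0.202, 0.293, 0.371 and 0.698). The log2 fold changes there were 0.34, 0.60, 0.39, 0.57 and 0.35, and the fit has 5 libraries an age in place of 10 and calls 173 genes in all. Inhba also lost it with no filter (0.0552) and with the replicate block (0.0528). The cause was not tested.

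Equal replicate numbers did not pair the samples. Of 25 pairs, 9 had deviations with r over 0.1 (-0.207 to 0.460), and 7 correlated best with their own number. The replicate block changed no call but that of Arc among the 10 genes.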

Other observations

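Heat shock genes encode chaperones and respond to stress in the animal or the tissue. Of 5, 2 rose from E14 to E18 (36% of all tested genes), 2 from E18 to P7 (37.9%), 5 from P7 to P35 (38%) and 5 from P35 to P70 (5%), and 0 fell in any step (0 also at an unadjusted edgeR p under 0.05 in that direction). Each of the counts of 2 held a call that was lost in other fits: Hspb1 from E14 to E18, with a log2 fold change of 0.51, with limma-voom (0.51, adjusted p = 0.183), with RNA integrity as a covariate (0.41, edgeR adjusted p = 0.105) and in 8 of the 50 fits without 1 library, and Hspa1a from E18 to P7 in wild-type libraries alone (0.24 in place of 0.40, edgeR adjusted p = 0.262). Hspa1b rose by 2.29 and 1.30 on the log2 scale in the last 2 steps (edgeR adjusted p = 9.90e-13 and 2.54e-05), and Hspa1a by 1.02 and 0.89. Their summed level, led by Hsph1, was 189 to 207 CPM at E14 and 361 to 589 CPM at P70. Within groups their correlations with the mean deviation of the 10 immediate early genes were 0.106 to 0.365 over 50 libraries that share dissection and scaling. Correlations at single ages are not given. The heat shock list deviated at P35 by -0.10, 0.24, 0.04, 0.15 and -0.32 in wild-type and -0.12, -0.15, 0.38, 0.00438 and -0.12 in Setd1a+/- libraries. At P70 the values were 0.03, 0.35, 0.55, -0.36 and -0.58 in wild-type and 0.18, 0.02, 0.13, 0.29 and -0.63 in Setd1a+/- libraries. Genotype called 0 of the 5 in edgeR, where 4.43% of all tested genes were called. At an unadjusted edgeR p under 0.05 there were 0 of the 5, and 2360 of all 16330 tested genes.

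Markers of other cells varied between embryos. Choroid plexus markers, led by Ttr, summed to 0.615 to 435 CPM at E14, with 0.615 in wild-type replicate 1 and 0.891 in Setd1a+/- replicate 2 at the low end. Endothelial markers, led by Cldn5, summed to 464 CPM in Setd1a+/- replicate 2 at E14 and 161 in Setd1a+/- replicate 4, and to 81.2 to 120.2 in the other 8. At E18 they were at 296, 236 and 201 CPM in wild-type replicates 3, 4 and 1 and at 101.99 to 142 in the other 7. Erythroid markers, led by Hbb-bs, changed in both directions with age. They summed to 242 to 978 CPM at E14, 101.97 to 270.0 at P7, 171 to 557 at P35 and 56.6 to 188 at P70. From E14 to E18 all 5 fell and from E18 to P7 2 fell (37.4% and 38.2% of all tested genes), from P7 to P35 all 5 rose (38%), and from P35 to P70 all 5 fell (4.74%).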
